A study of Mus musculus with 13 samples.

Results

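Phase II conjugation enzymes were examined as transcripts in mouse liver. The set was taken by gene name from the scanner files: glutathione S-transferases of the alpha, kappa, mu, omega, pi, theta and zeta classes, microsomal glutathione S-transferases, UDP-glucuronosyltransferases of families 1, 2 and 3, and cytosolic sulfotransferases of families 1 to 5 except Sult1e1. The transcript that the files call BC021614 was added because the gene table gives that name as an older symbol of Gstp3. This gave 53 genes on 80 probes, among them 24 glutathione transferases, 14 glucuronosyltransferases and 15 sulfotransferases. Of the 53, 50 had a probe that rose well above background throughout at least 1 group and were tested among 19518 genes. The probes of Gstt4 and Sult1c1 were well above background on 0 arrays and that of Sult2b1 on 2 HFHS, 1 pollutant and 1 ST vehicle array, so these 3 genes were not tested.

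Livers of 13 female C57BL6 mice, 12 weeks old, were hybridised to one-colour arrays. The HFHS group (n = 5) received the diet labelled HFHS with vehicle, the pollutants group (n = 5) the diet labelled ST with a mixture of 4 pollutants, and the ST vehicle group (n = 3) the diet labelled ST with vehicle. The labels give neither the composition of the diets nor the names and doses of the pollutants, and the series text can be read differently on which diet carried the mixture, so each array was taken as labelled. No genotype other than the strain is given, and replicates are separate samples of a group whose housing and litters are not given in the sources used here. The title of the series states the purpose as setting a low-dose mixture beside a high-fat challenge, in search of features that are shared or specific.

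Phase II enzymes attach a water-soluble group to a drug, pollutant, steroid or bile acid so that it can be excreted. Glutathione S-transferases add glutathione to electrophiles, UDP-glucuronosyltransferases add glucuronic acid, and sulfotransferases add sulfate taken from the donor PAPS. In liver these genes are known as targets of the receptors CAR, PXR and AhR and of the oxidant-responsive factor NRF2, and several sulfotransferases differ between the sexes in rodents.

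Levels are log2 intensities with the 75th percentile of each array set to 0, and each gene stands for its brightest probe. Since probes differ in brightness, levels were compared between groups for 1 probe and never between genes. Hepatocyte markers such as Alb and Ttr were high on every array, with list means of 6.85 to 7.16 in HFHS, 7.0 to 7.30 in pollutants and 7.13 to 7.25 in ST vehicle (10 of 10 markers measured). Markers of pancreatic acinar cells (13 of 18 measured) had list means of 4.74, 3.47 and 6.86 on HFHS replicates 3, 4 and 5, and between -3.39 and -1.85 on the other arrays. Male-biased liver genes (8 of 8 measured) averaged 3.07 on ST vehicle replicate 3, against 1.38 and 1.60 on the other ST vehicle arrays, 1.21 to 1.60 in HFHS and 1.19 to 2.09 in pollutants. On the first principal component of all genes (22.8% of the variance) the 3 arrays of slide 1 scored 35.4 to 41.8 and the others -36.7 to 2.3. For phase II genes, leaving out the 3 HFHS arrays high in acinar markers, ST vehicle replicate 3 or slide 1 ended some calls and moved some differences by over 1.5-fold. For the calls and differences reported below, the value without them is then given as well. Genes of the functional lists carry no such values. Without slide 1, limma called 1 of all genes in HFHS against ST vehicle, 3 in pollutants against ST vehicle and 1 in HFHS against pollutants. The part of acinar or male-biased transcripts in a result was not tested. Lower levels of a transcript in whole liver may be fewer cells or less RNA per cell, which these data cannot tell apart.

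The probes that carry the results come from families of close paralogs, so their sequences are shown first. They are taken from the scanner files and written 5′ to 3′. The Gstm7 probe (mm9 chr3:107732073-107733247, minus strand, spanning an intron) and the Gstm3 probe (chr3:107769290-107770549, minus strand, also spanning an intron) are set beside the probe of Gstm6 that overlaps the same part of the transcript (chr3:107745052-107745111, minus strand). The Gstm6 levels given below come from another, brighter probe (chr3:107741766-107741825, minus strand), which is not shown. In the Gstm7 line capitals mark bases at which either of the others differs, and in the other lines bases that differ from Gstm7.
Gstm7: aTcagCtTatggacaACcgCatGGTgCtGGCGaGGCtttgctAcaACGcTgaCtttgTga
Gstm3: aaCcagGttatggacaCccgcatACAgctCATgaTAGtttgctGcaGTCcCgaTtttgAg
Gstm6: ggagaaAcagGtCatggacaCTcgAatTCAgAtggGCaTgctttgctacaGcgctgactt
Without gaps, Gstm3 matched Gstm7 at 40 of 59 overlapping bases and Gstm6 at 41 of 55. Among pi class genes, the Gstp1 probe (chr19:4035908-4036723, minus strand) and the second Gstp2 probe (chr19:4040983-4041042, minus strand) overlap over 35 bases and differ at 5 of them, in capitals.
Gstp1: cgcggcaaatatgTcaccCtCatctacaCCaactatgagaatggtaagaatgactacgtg
Gstp2: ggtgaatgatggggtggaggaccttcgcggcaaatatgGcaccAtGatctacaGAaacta
The single Gstp3 probe (chr19:4057988-4058137, minus strand, spanning an intron) covers another stretch and had no closer match among the other members' probes than 15 of 30 bases (in lower case throughout).
Gstp3: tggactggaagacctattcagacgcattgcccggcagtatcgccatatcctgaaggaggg
Genes of the Ugt1a cluster share their last exons and differ in the first. The Ugt1a10 probe (chr1:89952780-89952839, plus strand) and a Ugt1a6b probe (chr1:90004249-90004308, plus strand) are shown because they fall on matching parts of the transcripts; they were identical at 32 of 54 overlapping bases, and capitals mark the other bases of the overlap.
Ugt1a10: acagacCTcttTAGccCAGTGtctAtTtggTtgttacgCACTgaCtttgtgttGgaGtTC
Ugt1a6b: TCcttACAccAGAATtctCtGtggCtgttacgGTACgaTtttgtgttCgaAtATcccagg
The Sult2a1 probe (chr7:14381602-14381661, minus strand), the Sult2a2 probe (chr7:14364926-14364985, plus strand) and the Sult2a4 probe (chr7:14495026-14495085, minus strand) are nearly the same sequence. Aligned windows of 30 bases are shown, with capitals as for the mu class.
Sult2a1: ttgttGtGtatcttgaatacctAGatGtgg
Sult2a2: ttgttCtAtatcttgaatacctGAatAtgg
Sult2a4: ttgttCtgtatcttgaatacctagatgtgg
Over their whole overlap the Sult2a4 and Sult2a1 probes shared 51 of 54 bases and the Sult2a2 and Sult2a1 probes 54 of 59, so the values of these 3 genes may share signal and are not 3 separate measurements. The Ugt2b37 and Ugt2b5 probes shared 46 of 55 bases.

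On the HFHS diet no phase II gene passed the test against ST vehicle (0 of 50 at a limma adjusted p under 0.05), where 0.687% of all genes did. At an unadjusted p under 0.05 there were 16 of the 50 genes, and 2356 of all 19518 (12.1%). The median log2 fold change of the 50 genes was -0.04, against -0.02 for all genes. Between pollutants and ST vehicle 2 of 50 passed (4.00%), both lower with the mixture, Gstp3 and Gstm7. Of all genes 0.984% passed in either direction and 0.441% were lower. The median was -0.04, against -0.01 for all genes. Both comparisons use the same 3 ST vehicle arrays, so their values for a gene are not independent and are set side by side only. Between HFHS and pollutants 7 of 50 passed (14.0%), against 3.87% of all genes, with a median of -0.01 against 0.00. With slide as a block in the model the counts in the 3 comparisons, in the order given, were 0, 1 and 5. In that comparison 4 were higher in HFHS (8%, against 1.57% of all genes), Gstp3, Gsto2, Ugt3a1 and Sult1c2. The other 3 were lower in HFHS (6%, against 2.30% of all genes), Ugt1a10, Gstt2 and Gsto1.

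**Figure D1:**
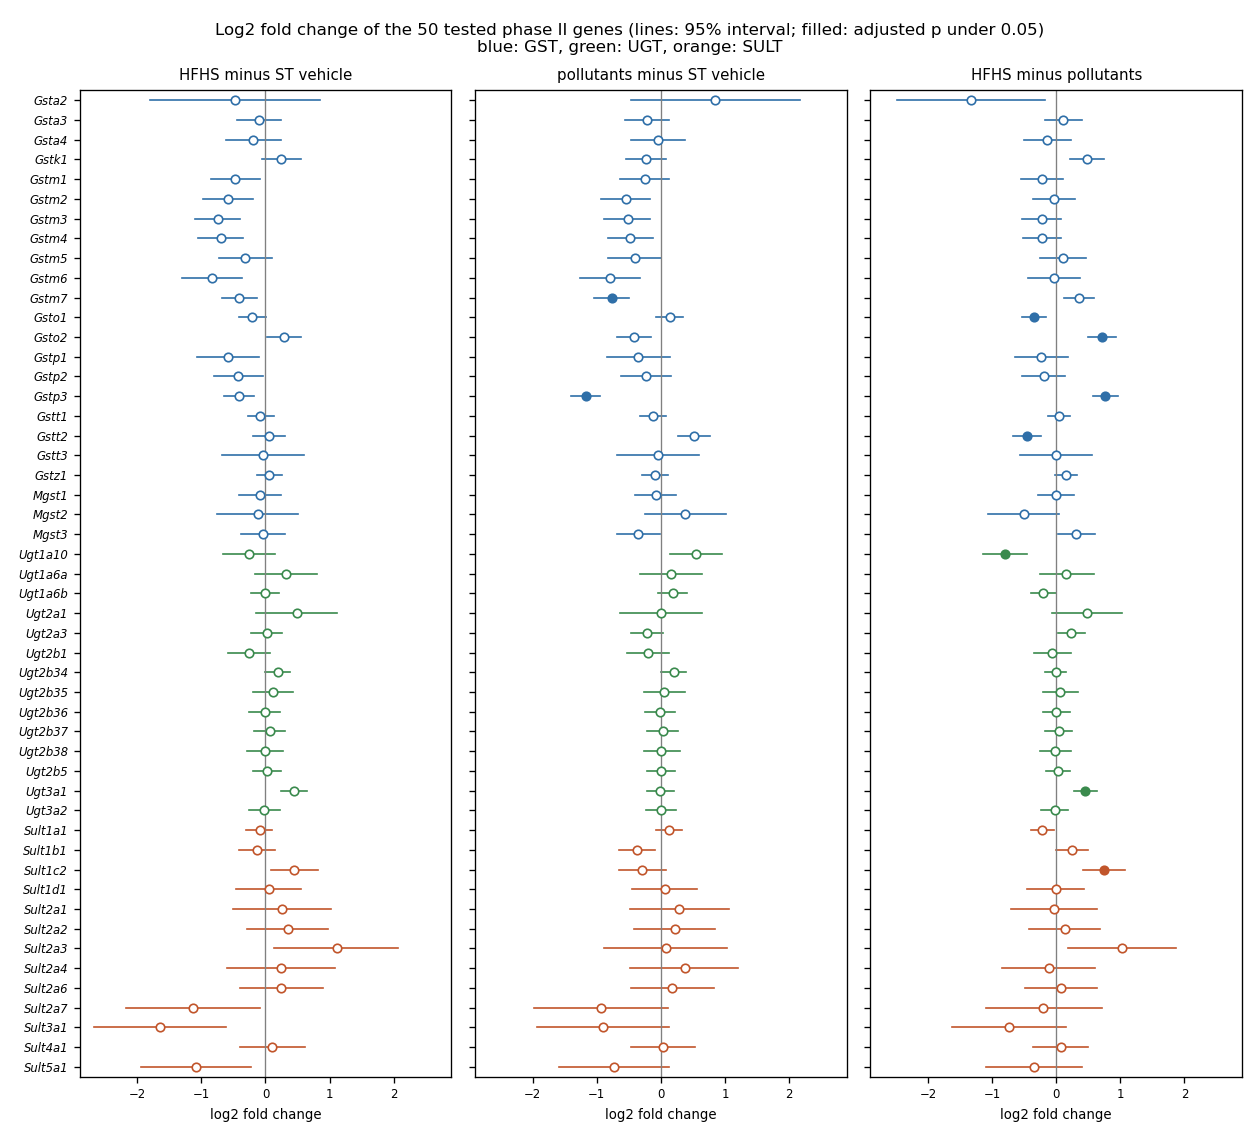
Log2 fold change of each of the 50 tested phase II genes in the 3 comparisons, on horizontal axes in log2 units, with lines for the 95% interval of the limma model. Filled points are the 0, 2 and 7 genes called, the Gstm genes lie left of 0 in both comparisons with ST vehicle, and the Ugt2b genes lie near 0 in all 3.

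All HFHS arrays lay below all ST vehicle arrays for 7 of the 50 genes (14.0%, against 5.33% of all genes), and above them for 1, Ugt3a1 (2.00%, against 3.82%). Pollutant arrays lay wholly below ST vehicle for 8 genes (16%, against 4.40%) and wholly above it for 2, Gstt2 and Ugt1a6b (4.00%, against 3.92%). HFHS arrays lay wholly above pollutants for 5 genes (10%, against 2.74%) and wholly below for 2, Gsto1 and Gstt2 (4.00%, against 4.19%).

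Gstp3 is a pi class glutathione transferase encoded beside Gstp1 and Gstp2 on chromosome 19. Its levels were -0.08, 0.05, -0.03, -0.07 and 0.04 on the HFHS arrays, -0.63, -0.55, -0.85, -1.0 and -0.87 on the pollutant arrays, and 0.28, 0.46 and 0.43 on the ST vehicle arrays. Each group occupied its own range, ST vehicle highest and pollutants lowest, with no overlap between any pair. Pollutants differed from ST vehicle by -1.17 ± 0.10 (log2, SE; 2.25-fold lower; adjusted p = 0.00172), with -0.90, -1.01 and -1.31 within slides 1, 2 and 5. HFHS was higher than pollutants by 0.76 ± 0.09 (1.70-fold; adjusted p = 0.00586), with the same sign on all 5 slides (0.54 to 0.94). HFHS differed from ST vehicle by -0.41 ± 0.10, which did not pass (adjusted p = 0.114), with -0.41 to -0.36 within the 3 slides. The fall with pollutants passed in each of 24 other settings (adjusted p 6.95e-04 to 0.0276). The difference between HFHS and pollutants passed in 23 of them and not without the arrays of slide 1 (adjusted p = 0.0612, with a range of 0.00258 to 0.0612 over the settings).

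Gstp1 and Gstp2 encode the other pi class enzymes. Gstp1 had levels of 3.66, 3.88, 3.62, 3.56 and 3.58 in HFHS, 3.95, 3.65, 3.94, 4.15 and 3.76 in pollutants, and 3.71, 4.05 and 4.97 in ST vehicle. ST vehicle replicate 3, the array high in male-biased genes, stood above all others for Gstp1 and also for Gstp2, where it read 7.13 against 6.15 and 6.33 on the other ST vehicle arrays. Neither gene passed in any comparison. The Gstp1 differences from ST vehicle were -0.58 ± 0.22 in HFHS and -0.35 ± 0.22 in pollutants, and those of Gstp2 were -0.43 ± 0.18 in HFHS and -0.23 ± 0.18 in pollutants. Without ST vehicle replicate 3 they were -0.22 in HFHS and 0.01 in pollutants for Gstp1, and -0.13 in HFHS and 0.07 in pollutants for Gstp2. On slide 5, which holds that array, the Gstp1 difference was -1.39 for HFHS and -1.21 for pollutants, while on slides 1 and 2 it was -0.05 and -0.17 for HFHS and 0.24 and -0.40 for pollutants.

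The mu class enzymes, a cluster on chromosome 3, conjugate epoxides and other electrophiles. All 7 tested Gstm genes had negative fold changes against ST vehicle in HFHS (-0.83 to -0.32, median -0.58) and in pollutants (-0.79 to -0.25, median -0.52). The signs were the same under each of the 24 other settings, but not all of these could turn a sign. Leaving out an array of the group not compared, or fitting only the 2 groups compared, leaves the fold change as it is. Some marker lists also lay lower in HFHS than in ST vehicle. The 6 measured cholangiocyte markers (of 7) had list means of -2.64 to -2.33 in HFHS, -2.43 to -1.63 in pollutants and -1.98 to -1.93 in ST vehicle, and 6 of 6 differed in the negative direction in HFHS, with 0 called by limma and 1 at an unadjusted p under 0.05. The 8 measured pericentral markers (of 9) averaged 2.91 to 3.06 in HFHS, 2.94 to 3.22 in pollutants and 3.12 to 3.16 in ST vehicle, with 1 called, Cyp1a2. The 8 measured periportal markers averaged 4.56 to 5.15 in HFHS, 4.88 to 5.25 in pollutants and 5.02 to 5.17 in ST vehicle. Of these 0 were called in HFHS against ST vehicle. In that comparison 6 of 8 genes were negative in each of the 2 zone lists, with medians of -0.13 (pericentral) and -0.22 (periportal). Male-biased genes had negative differences in 8 of 8 and hepatocyte markers in 9 of 10, where 54.5% of all genes were negative. In either list 0 were called, and limma gave 1 male-biased and 2 hepatocyte genes an unadjusted p under 0.05. The male-biased list averaged 1.21 to 1.60 in HFHS and 1.38, 1.60 and 3.07 on the ST vehicle arrays, the highest being replicate 3. In pollutants against ST vehicle, 2 of 6 cholangiocyte, 5 of 8 pericentral and 5 of 8 periportal genes were negative. So were 7 of 8 male-biased and 6 of 10 hepatocyte genes, and 51.8% of all genes. There limma called 1 gene of these lists lower, the periportal Cdh1 (adjusted p = 0.0429), and 0.441% of all genes. Adipocyte markers were negative in 5 of 6 in HFHS and 4 of 6 in pollutants, and skeletal muscle markers in 6 of 7 in HFHS and 1 of 7 in pollutants. The part of these lists in the values of the 7 mu class genes was not tested. Of the 7, 1 was called with pollutants, Gstm7, and 0 in HFHS, where limma gave 6 an unadjusted p under 0.05. Gstm7 levels were 0.50, 0.92, 0.52, 0.81 and 0.69 in HFHS, 0.45, 0.31, 0.39, 0.33 and 0.17 in pollutants, and 0.88, 1.35 and 1.06 in ST vehicle. Pollutant arrays lay below all ST vehicle and all HFHS arrays, while HFHS overlapped ST vehicle. The difference was -0.76 ± 0.13 (1.70-fold lower; adjusted p = 0.0199) in pollutants against ST vehicle, with -0.42, -1.04 and -0.88 within slides 1, 2 and 5. In HFHS it was -0.41 ± 0.13 (adjusted p = 0.205), and HFHS against pollutants gave 0.36 ± 0.11 (adjusted p = 0.0973). The other 2 Gstm7 probes gave -0.76 and -0.79 in pollutants and -0.34 and -0.32 in HFHS, the second of each from a probe that was well above background on 2 of 5 pollutant arrays. The call was lost in 8 of 24 settings, among them slide as a block (adjusted p = 0.0569), leaving out ST vehicle replicate 2 (-0.63; 0.0716) or replicate 3 (-0.78; 0.0777) and leaving out HFHS replicates 3 to 5 (-0.76; 0.0595) or slide 1 (-0.90; 0.0671), with a range of 0.0114 to 0.0777 over the settings.

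**Figure D2:**
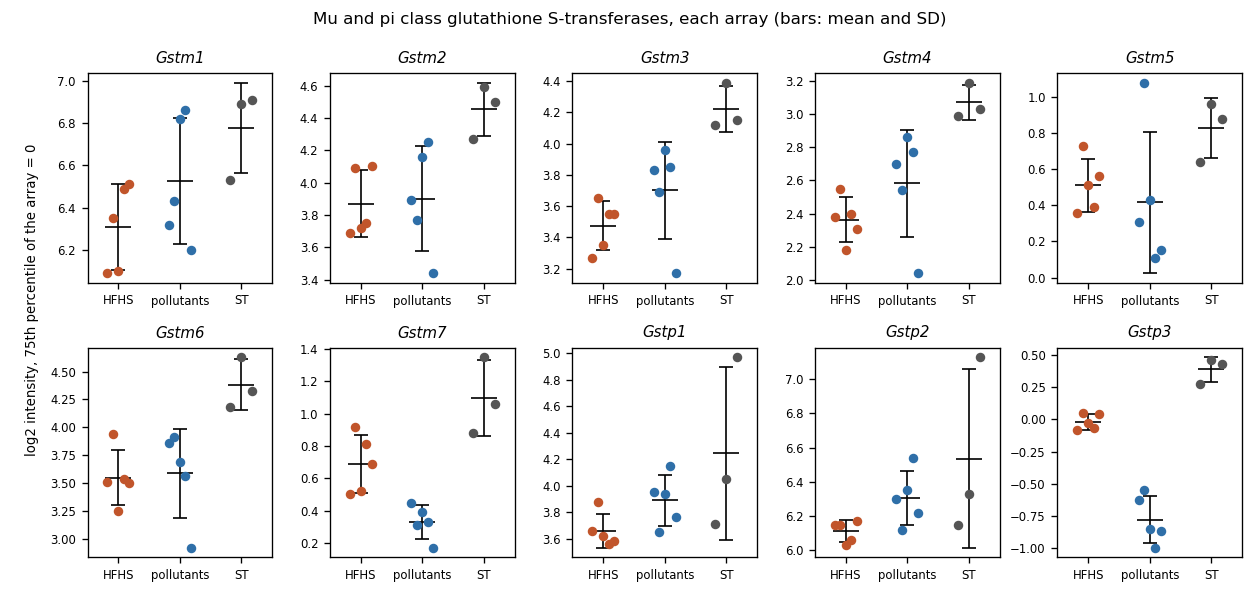
Levels of the 7 mu class and 3 pi class genes on each array, in log2 intensity with the 75th percentile of the array at 0; points are arrays of HFHS, pollutants and ST vehicle, and bars give mean and SD. ST vehicle lies above both other groups for Gstm2, Gstm3, Gstm4 and Gstm6, Gstp3 separates all 3 groups, and a single ST vehicle array is high for Gstp1 and Gstp2.

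Gstm3 and Gstm4 had the smallest p-values of the mu class in HFHS. Gstm3 read 3.27, 3.65, 3.35, 3.55 and 3.55 in HFHS, 3.83, 3.69, 3.96, 3.85 and 3.17 in pollutants, and 4.12, 4.39 and 4.15 in ST vehicle. Gstm4 read 2.38, 2.55, 2.18, 2.40 and 2.31 in HFHS, 2.70, 2.54, 2.86, 2.77 and 2.04 in pollutants, and 2.99, 3.19 and 3.03 in ST vehicle. Every HFHS and every pollutant array lay below every ST vehicle array for both genes. In HFHS the differences were -0.74 ± 0.16 for Gstm3 (adjusted p = 0.0661) and -0.70 ± 0.16 for Gstm4 (adjusted p = 0.0749), and in pollutants -0.52 ± 0.16 for Gstm3 (0.183) and -0.48 ± 0.16 for Gstm4 (0.215). Within the 3 slides the HFHS differences were -0.85 to -0.59 for Gstm3 and -0.72 to -0.61 for Gstm4. Their second probes gave larger or unequal differences: -1.44 in HFHS and -1.16 in pollutants for Gstm3, and -0.35 in HFHS and -0.98 in pollutants for Gstm4. When pollutant replicate 5, the lowest pollutant array for 6 of the 7 genes (all but Gstm5), was left out of the shared model, Gstm3, Gstm4 and Gstm6 passed as lower in HFHS against ST vehicle (adjusted p = 0.0161, 0.0161 and 0.0423). Over the 24 settings the adjusted p of Gstm3 in HFHS ran from 0.0161 to 0.299.

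Gstm6 read 3.51, 3.94, 3.25, 3.54 and 3.50 in HFHS, 3.86, 3.91, 3.69, 3.56 and 2.92 in pollutants, and 4.18, 4.63 and 4.33 in ST vehicle, again with both groups wholly below ST vehicle. The differences were -0.83 ± 0.22 in HFHS (adjusted p = 0.124) and -0.79 ± 0.22 in pollutants (adjusted p = 0.120). Of its other probes, 2 gave -1.34 and -1.04 in HFHS and -0.82 and -0.83 in pollutants, and a dim one gave -0.18 in HFHS and -0.09 in pollutants. Gstm2 averaged 3.87 ± 0.20 in HFHS, 3.90 ± 0.32 in pollutants and 4.45 ± 0.17 in ST vehicle (SD, n = 5, 5 and 3), and 3 of 3 probes gave differences between -0.65 and -0.52. Gstm1 averaged 6.31 ± 0.21 in HFHS, 6.53 ± 0.30 in pollutants and 6.78 ± 0.21 in ST vehicle. The files place its probe on chromosome 5 (mm9 chr5:117082490-117082549) and not in the Gstm cluster, and its second probe, on chromosome 3, gave -0.58 in HFHS and -0.36 in pollutants. Gstm5 gave -0.32 ± 0.19 in HFHS and -0.41 ± 0.19 in pollutants, with pollutant replicate 2 at 1.08 above the other pollutant arrays (0.11 to 0.43).

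The omega class genes Gsto1 and Gsto2, which encode enzymes that reduce dehydroascorbate, lie side by side on chromosome 19 and differed in opposite directions between HFHS and pollutants. Gsto2 (single probe, chr19:47960702-47960761) read -2.98, -3.37, -2.96, -3.52 and -3.24 in HFHS, -3.92, -3.92, -3.98, -3.98 and -3.83 in pollutants, and -3.57, -3.45 and -3.48 in ST vehicle. The pollutant arrays formed a narrow range below both other groups, and HFHS overlapped ST vehicle. Gsto2 was dim throughout (mean of -3.55 over the 13 arrays), and the part of background in its ranges was not tested. HFHS was higher than pollutants by 0.72 ± 0.10 (1.64-fold; adjusted p = 0.00586), on 5 of 5 slides (0.46 to 1.02). Pollutants differed from ST vehicle by -0.42 ± 0.12 (adjusted p = 0.137) and HFHS by 0.29 ± 0.12 (adjusted p = 0.342). The call between HFHS and pollutants was lost with normexp background correction (adjusted p = 0.121) and without slide 1 (0.0703), and its range over the settings was 0.00260 to 0.121. In the authors' table the difference was 0.33 between HFHS and pollutants (adjusted p = 0.0349), 0.12 for HFHS and -0.20 for pollutants against ST vehicle.

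Gsto1 read 5.03, 4.94, 5.05, 4.92 and 5.00 in HFHS, 5.25, 5.08, 5.52, 5.42 and 5.39 in pollutants, and 5.11, 5.32 and 5.16 in ST vehicle. HFHS arrays lay below every array of both other groups. The difference between HFHS and pollutants was -0.34 ± 0.09 (1.27-fold lower; adjusted p = 0.0469) and that between HFHS and ST vehicle -0.21 ± 0.10 (adjusted p = 0.445). The call stood in 3 of 24 settings, with adjusted p from 0.0216 to 0.237. It was lost without HFHS replicates 3 to 5 (-0.34; 0.237), without slide 1 (-0.37; 0.146) and without ST vehicle replicate 3 (-0.34; 0.0589).

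Among theta class genes, whose enzymes act on haloalkanes and other small molecules, Gstt2 was called. It read 3.51, 3.54, 3.58, 3.30 and 3.52 in HFHS, 3.76, 3.85, 3.98, 4.00 and 4.15 in pollutants, and 3.49, 3.62 and 3.20 in ST vehicle. All 5 pollutant arrays were above all arrays of both other groups. The log2 difference of HFHS from pollutants was -0.46 ± 0.10 (1.38-fold lower; adjusted p = 0.0272) and ran from -0.70 to -0.25 over the 5 slides. Pollutants against ST vehicle gave 0.52 ± 0.11 (1.43-fold), just outside the threshold (adjusted p = 0.0593; 0.0340 to 0.566 over the settings, past it in 3 of 24), and HFHS against ST vehicle 0.06 ± 0.11. The call between HFHS and pollutants was lost in 12 of 24 settings, including slide as a block (adjusted p = 0.0569; range 0.0168 to 0.183), leaving out HFHS replicates 3 to 5 (-0.43; 0.183) and leaving out slide 1 (-0.51; 0.0885). Gstt1 and Gstt3 had differences between -0.12 and 0.05 in all 3 comparisons, though Gstt3 spread over 3.86 to 5.46 within the pollutant arrays alone.

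**Figure D3:**
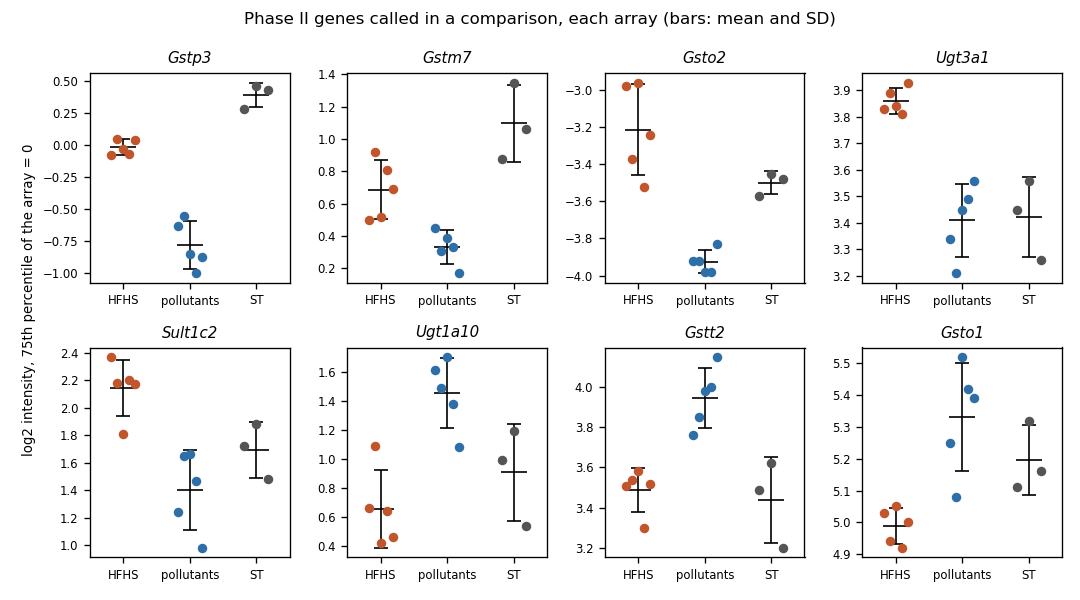
Levels on each array of the 8 phase II genes called in at least 1 comparison, in log2 intensity with the 75th percentile of the array at 0; bars give mean and SD of HFHS, pollutants and ST vehicle. By mean, pollutants are the lowest group for Gstp3, Gstm7, Gsto2 and Sult1c2 and the highest for Ugt1a10, Gstt2 and Gsto1, and for Ugt3a1 the HFHS arrays lie above all others.

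Of the remaining glutathione transferases none was called. Gstk1, the kappa class enzyme of mitochondria and peroxisomes, read 5.21, 5.50, 4.99, 5.45 and 5.54 in HFHS, 5.07, 4.83, 4.83, 4.89 and 4.68 in pollutants, and 5.12, 5.28 and 4.86 in ST vehicle. HFHS and pollutants overlapped by the lowest HFHS array, replicate 3, and differed by 0.48 ± 0.12 (adjusted p = 0.0521). That difference passed in 5 of 24 settings (adjusted p 0.0237 to 0.332), among them leaving out HFHS replicate 3 (0.56; 0.0237). Gstz1, which also serves tyrosine breakdown as maleylacetoacetate isomerase, stayed within 0.15 of 0 in all 3 comparisons, with 95% intervals inside -0.29 to 0.32. The alpha class gene Gsta3, whose product detoxifies aflatoxin epoxide in mice, differed by -0.10 ± 0.16 in HFHS and -0.21 ± 0.16 in pollutants, and the 4-hydroxynonenal-conjugating Gsta4 by -0.19 ± 0.20 in HFHS and -0.04 ± 0.20 in pollutants. Mgst1, the membrane-bound enzyme of the endoplasmic reticulum, gave -0.08 ± 0.15 in both comparisons with ST vehicle. Mgst3 gave -0.35 ± 0.16 in pollutants (adjusted p = 0.383) and -0.04 ± 0.16 in HFHS, and Mgst2 was dim, with means of -3.58 in HFHS, -3.07 in pollutants and -3.46 in ST vehicle.

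Gsta2, an alpha class gene known as inducible through NRF2 and the AhR in rodents, varied widely between arrays. It read 0.88, 3.05, 1.25, 3.15 and 3.74 in HFHS, 3.44, 3.89, 4.35, 4.24 and 2.78 in pollutants, and 3.22, 3.01 and 2.44 in ST vehicle. HFHS replicates 1 and 3 were far below all other arrays, and the 3 other HFHS arrays fell inside the range of pollutants and ST vehicle. The difference was -0.47 ± 0.61 for HFHS and 0.85 ± 0.61 for pollutants against ST vehicle, and -1.33 ± 0.53 for HFHS against pollutants (adjusted p = 0.199). The intervals reached from -1.80 to 0.85 for HFHS and from -0.47 to 2.18 for pollutants. Without slide 1, which holds HFHS replicate 1, the HFHS difference was 0.07, and without HFHS replicates 3 to 5 it was -0.92.

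Glucuronosyltransferases of the Ugt2b group, which act on steroids, bile acids and drugs, differed little between the groups. The 7 tested genes (Ugt2b1, Ugt2b5, Ugt2b34, Ugt2b35, Ugt2b36, Ugt2b37 and Ugt2b38) gave fold changes of -0.26 to 0.19 in HFHS, -0.20 to 0.20 in pollutants and -0.06 to 0.06 between HFHS and pollutants. Their 95% intervals lay within -0.59 to 0.43, -0.53 to 0.40 and -0.35 to 0.34 in these comparisons. Ugt2b5, for example, averaged 5.66 ± 0.14 in HFHS, 5.64 ± 0.10 in pollutants and 5.63 ± 0.14 in ST vehicle (SD, n = 5, 5 and 3). Against ST vehicle Ugt2a3 gave 0.02 ± 0.11 in HFHS and -0.22 ± 0.11 in pollutants, and the dim Ugt2a1 gave 0.49 ± 0.29 in HFHS and 0.01 ± 0.29 in pollutants.

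Ugt3a1 was higher in HFHS than in pollutants. The human enzyme of this name transfers N-acetylglucosamine instead of glucuronic acid. Ugt3a1 read 3.83, 3.89, 3.84, 3.81 and 3.93 in HFHS, 3.34, 3.21, 3.45, 3.49 and 3.56 in pollutants, and 3.45, 3.56 and 3.26 in ST vehicle. The HFHS arrays lay above every other array, and pollutants and ST vehicle overlapped. HFHS was higher than pollutants by 0.45 ± 0.08 (1.37-fold; adjusted p = 0.0102), with 0.32 to 0.68 on 5 of 5 slides. The difference from ST vehicle was of the same size, 0.44 ± 0.09 (1.36-fold), and missed the threshold (adjusted p = 0.0618; 0.0253 to 0.567 over 24 settings, past it in 2). The call against pollutants was lost with normexp (0.30; adjusted p = 0.316), without HFHS replicates 3 to 5 (0.45; 0.117) and without slide 1 (0.44; 0.0935). Ugt3a2, its neighbour on chromosome 15, differed by at most 0.02 in any comparison.

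Ugt1a10, named so in the files, read 0.66, 1.09, 0.42, 0.64 and 0.46 in HFHS, 1.61, 1.49, 1.70, 1.38 and 1.08 in pollutants, and 0.99, 1.19 and 0.54 in ST vehicle. HFHS and pollutants overlapped by 1 array of each, HFHS replicate 2 and pollutant replicate 5. The log2 difference of HFHS from pollutants was -0.80 ± 0.16 (1.74-fold lower; adjusted p = 0.0195), on 5 of 5 slides (-1.28 to -0.40), and the second probe of its first exon gave -0.65. Pollutants differed from ST vehicle by 0.55 ± 0.19 (adjusted p = 0.230) and HFHS by -0.25 ± 0.19. Without HFHS replicates 3 to 5, the ones high in acinar markers, the difference between HFHS and pollutants was -0.58 (adjusted p = 0.239), without slide 1 -0.76 (0.130) and without pollutant replicate 3 -0.74 (0.0520), with a range of 0.0116 to 0.239 over the settings. The brightest Ugt1a6b probe (chr1:90115493-90115552, plus strand) lies 111 kb from the other Ugt1a6b probe shown above, and the gene table (GRCm38.p6) gives 7 of 9 Ugt1a genes 1 common end and the other 2 another, so its signal was not assigned to a single Ugt1a transcript. It averaged 7.42 ± 0.16 in HFHS, 7.61 ± 0.12 in pollutants and 7.43 ± 0.06 in ST vehicle, and pollutants were 0.19 ± 0.10 above ST vehicle (adjusted p = 0.531). The single Ugt1a6a probe (chr1:90116514-90116573, plus strand) lies just beyond that Ugt1a6b probe, and its dim signal was not assigned to a single Ugt1a transcript either. It gave 0.32 ± 0.22 in HFHS and 0.16 ± 0.22 in pollutants against ST vehicle.

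Among sulfotransferases only Sult1c2 was called. It read 2.37, 2.18, 1.81, 2.20 and 2.17 in HFHS, 1.24, 1.65, 1.66, 1.47 and 0.98 in pollutants, and 1.72, 1.88 and 1.48 in ST vehicle. All HFHS arrays were above all pollutant arrays, with ST vehicle between them and overlapping both. HFHS was higher than pollutants by 0.74 ± 0.15 (1.68-fold; adjusted p = 0.0179), by 0.15 to 1.19 on 5 of 5 slides. Against ST vehicle HFHS gave 0.45 ± 0.17 (adjusted p = 0.292) and pollutants -0.29 ± 0.17. The call was lost in 4 of 24 settings: normexp (adjusted p = 0.120), without HFHS replicate 2 (0.0505), without HFHS replicates 3 to 5 (0.0703) and without slide 1 (0.135), the highest of the range that starts at 0.0147. Female-biased liver genes (7 of 8 measured) had list means of 3.12 to 3.53 in HFHS, 2.55 to 3.04 in pollutants and 2.74 to 3.36 in ST vehicle. By list mean, HFHS arrays thus lay above all pollutant arrays. Between HFHS and pollutants 4 of the 7 genes differed upward and 3 downward (median 0.19), and limma called 1, as higher in HFHS. Their part in the Sult1c2 value was not tested. Sult1a1, the phenol sulfotransferase, averaged 6.16 ± 0.08 in HFHS, 6.38 ± 0.14 in pollutants and 6.25 ± 0.09 in ST vehicle, and its 2 probes both gave -0.22 between HFHS and pollutants (adjusted p = 0.162). Sult1b1 gave -0.37 ± 0.13 in pollutants (adjusted p = 0.238) and -0.13 ± 0.13 in HFHS, and Sult1d1, which sulfates catecholamines in mice, gave 0.06 ± 0.24 in pollutants and 0.05 ± 0.24 in HFHS, all against ST vehicle.

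The Sult2a genes encode hydroxysteroid sulfotransferases that act on bile acids and steroids. Sult2a1 read 6.14, 6.17, 6.17, 6.64 and 7.08 in HFHS, 6.24, 5.81, 6.54, 6.88 and 6.87 in pollutants, and 6.72, 6.56 and 5.25 in ST vehicle. ST vehicle replicate 3 was lowest of all arrays for 5 of the 6 Sult2a genes tested, the exception being Sult2a7. It was the array with high male-biased genes and high Gstp1 and Gstp2. Sult2a3 read 2.66, 3.09, 2.32, 2.88 and 3.97 in HFHS, 1.91, 1.43, 1.83, 2.33 and 2.28 in pollutants, and 2.47, 2.52 and 0.63 in ST vehicle. Its difference from ST vehicle was 1.11 ± 0.44 in HFHS (adjusted p = 0.326), 0.48 without ST vehicle replicate 3 and 1.49 without slide 1, the ends of its range over the settings. In pollutants it was 0.08 ± 0.44, and -0.55 without that replicate. For Sult2a1 the differences were 0.26 ± 0.36 in HFHS and 0.29 ± 0.36 in pollutants, and without that replicate -0.20 in HFHS and -0.17 in pollutants, so the sign turned. For Sult2a3, HFHS against pollutants, which does not set HFHS against that array, gave 1.03 ± 0.38 (limma adjusted p = 0.168). The mean of the female-biased list was also higher on HFHS arrays than on pollutant arrays, with 4 of its 7 measured genes positive and 3 negative. Sult2a7 gave -1.13 ± 0.48 in HFHS and -0.93 ± 0.48 in pollutants, with HFHS arrays from 0.49 to 2.56, pollutant arrays from 0.67 to 2.44 and ST vehicle arrays from 2.09 to 2.60. Without HFHS replicates 3 to 5 the HFHS difference of Sult2a7 was -0.29.

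Sult3a1, an amine sulfotransferase in mice, had the largest difference from ST vehicle among the 50 tested members. It read 2.69, 1.47, 1.47, 0.36 and 1.18 in HFHS, 1.75, 2.41, 1.53, 2.28 and 2.89 in pollutants, and 2.27, 3.27 and 3.70 in ST vehicle. HFHS replicate 1 lay inside the ST vehicle range, and the other HFHS arrays lay below it. The difference was -1.65 ± 0.47 in HFHS (3.13-fold lower; adjusted p = 0.170, 0.0726 to 0.617 over the settings) and -0.91 ± 0.47 in pollutants. The HFHS value was -1.0 without HFHS replicates 3 to 5, -2.37 without slide 1 and -1.34 without ST vehicle replicate 3, and the pollutant value -0.60 without that last array. Within slides it was 0.42 at the highest and -2.52 at the lowest in HFHS, and negative on 3 of 3 slides in pollutants (-0.86 to -0.52). Sult5a1 gave -1.08 ± 0.40 in HFHS and -0.73 ± 0.40 in pollutants, with ST vehicle arrays at -0.30, 0.39 and 1.44, and -0.61 in HFHS and -0.26 in pollutants without ST vehicle replicate 3, the highest of them. Sult4a1, known mainly from brain, was dim and gave 0.11 ± 0.23 in HFHS and 0.04 ± 0.23 in pollutants.

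**Figure D4:**
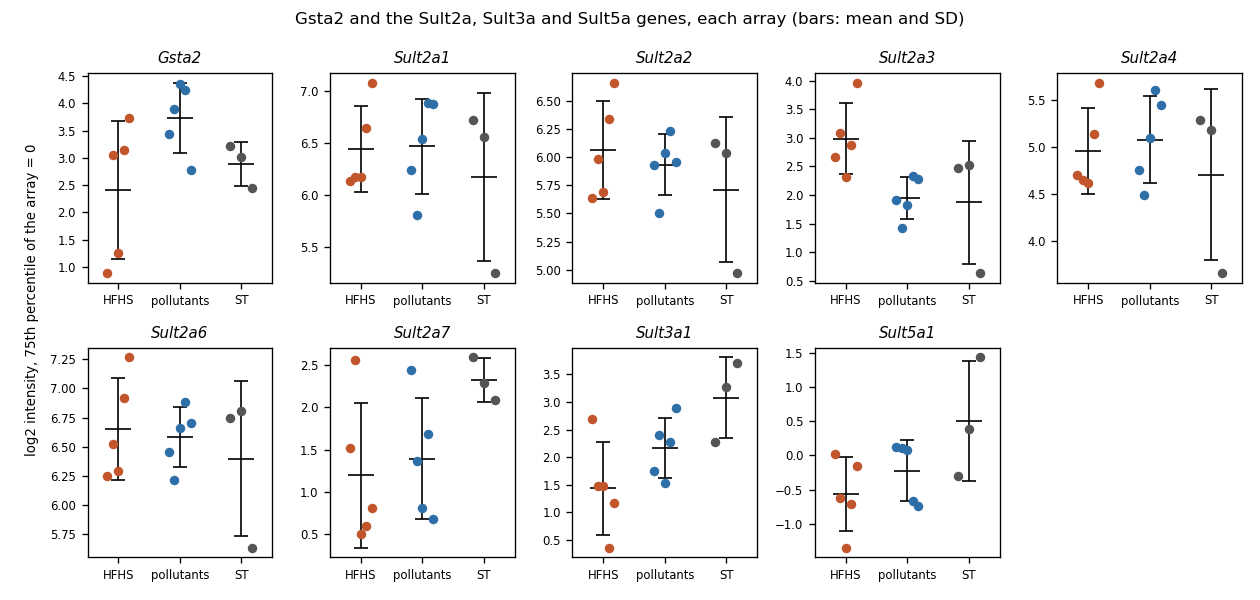
Levels on each array of Gsta2 and of the Sult2a, Sult3a and Sult5a genes, in log2 intensity with the 75th percentile of the array at 0; bars give mean and SD of HFHS, pollutants and ST vehicle. A single ST vehicle array is lowest for 5 Sult2a genes and highest for Sult3a1 and Sult5a1, and HFHS replicates 1 and 3 are lowest for Gsta2.

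Genes that supply or surround conjugation were listed by function and counted. Of all genes, limma gave 12.1% an unadjusted p under 0.05 in HFHS and 12.1% in pollutants against ST vehicle, and 18.3% between HFHS and pollutants. At the adjusted threshold it called 1.57% of all genes higher and 2.30% lower in HFHS than in pollutants. Against ST vehicle it called 0.236% higher and 0.451% lower in HFHS. Of 17 tested genes that supply cofactors, 0 were called against ST vehicle in either group (limma gave 3 in HFHS and 6 in pollutants an unadjusted p under 0.05) and 1 was higher in HFHS than in pollutants, the sulfate transporter Slc26a1 (0.80 ± 0.11, 1.74-fold; adjusted p = 0.00586; 0.38 ± 0.13 in HFHS and -0.42 ± 0.13 in pollutants against ST vehicle). Of 20 tested genes of other conjugation reactions, Sult1e1 among them, 0 were called against ST vehicle (unadjusted p under 0.05 for 5 in HFHS and 6 in pollutants) and 2 were higher in HFHS than in pollutants. They were the arylamine acetyltransferase Nat1 (0.78 ± 0.18; adjusted p = 0.0347) and Baat, which joins bile acids to amino acids (0.32 ± 0.07; adjusted p = 0.0315). Of 8 tested deconjugation genes, the carboxylesterase Ces2a fell in HFHS against ST vehicle (-0.73 ± 0.12; adjusted p = 0.0229) and against pollutants (-0.72 ± 0.11; 0.00586), and differed by -0.01 ± 0.12 in pollutants against ST vehicle. Of 14 transporters 0 were called by limma in the 3 comparisons, where an unadjusted p under 0.05 was found for 2 in HFHS and 4 in pollutants against ST vehicle and 4 between HFHS and pollutants. Of 21 regulators 0 were called, with 3, 4 and 9 at that unadjusted level in the same comparisons. The smallest unadjusted p-values over the 3 comparisons, given here with their adjusted p, were those of the efflux pumps Abcb1a (0.86 ± 0.20 in pollutants against ST vehicle; adjusted p = 0.0703) and Abcc3 (-0.50 ± 0.13 in HFHS against pollutants; 0.0578), of Stat5b, the growth hormone signal carrier (-0.33 ± 0.07 in HFHS against ST vehicle, 0.0709, and -0.32 ± 0.07 in pollutants, 0.0727), and of the gene of CAR, Nr1i3 (0.49 ± 0.13 in pollutants; 0.0968). ST vehicle replicate 3 was the lowest ST vehicle array for Abcb1a (-1.48, against -0.58 and -0.52) and for Nr1i3 (3.45, against 3.90 and 3.82). It was the highest for Stat5b (2.55, against 2.30 and 2.31). The lowest adjusted p of a regulator was that of Foxa2, a liver transcription factor, between HFHS and pollutants (0.45 ± 0.12; 0.0591), a gene added after its value was seen.

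Of 15 tested phase I genes listed as receptor targets, 2 were called as risen and 0 as fallen in pollutants against ST vehicle, and 1 as risen and 1 as fallen in HFHS. In each of these comparisons 9 of the 15 differences were positive and 6 negative, with medians of 0.10 in pollutants and 0.13 in HFHS. Of all genes, 0.543% were called higher in pollutants against ST vehicle, and 0.236% were called higher and 0.451% lower in HFHS. Alas1, the first enzyme of haem synthesis, rose in both (1.88 ± 0.21 in pollutants, adjusted p = 0.00358; 1.48 ± 0.21 in HFHS, 0.0115). Por, which passes electrons to cytochromes P450, rose in pollutants (0.87 ± 0.16; adjusted p = 0.0312) and gave 0.46 ± 0.16 in HFHS (0.265). The ST vehicle arrays read 5.23, 5.45 and 4.59 for Por, replicate 3 being the lowest. Cyp1a2, the hepatic cytochrome under the AhR, fell in HFHS (-0.87 ± 0.17; adjusted p = 0.0401) and gave -0.35 ± 0.17 in pollutants (0.436). Of 13 tested NRF2 targets 0 were called by limma in the 3 comparisons (unadjusted p under 0.05 for 2 in HFHS and 4 in pollutants against ST vehicle, and 4 between HFHS and pollutants), with medians of -0.04 in HFHS and -0.05 in pollutants against ST vehicle, and 0.06 between HFHS and pollutants. The smallest unadjusted p-values were those of Aldh3a2 (0.71 ± 0.19 in HFHS and 0.67 ± 0.19 in pollutants against ST vehicle; adjusted p = 0.140 and 0.145) and Gclc (0.55 ± 0.17 in HFHS against pollutants; 0.0922). For Aldh3a2 the ST vehicle arrays read 2.75, 2.69 and 1.89, replicate 3 being the lowest.

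Promoter windows from 250 bases before to 50 after the start were held by the RefSeq table (GRCm38.p6) for 45 of the 53 genes. Each of 3 short motifs was searched on both strands. TGACNNNGC, as bound by NRF2, was found in 4 of 45 genes (8.9%, against 14.0% of all genes in the table), namely Gsta3, Gstm5, Gstm7 and Mgst1. GCGTG, the core of the AhR element, was found in 9 of 45 (20%, against 35.2%), and AGTTCA, a nuclear receptor half-site, in 8 of 45 (17.8%, against 15.7%). Matches of different motifs were counted separately and could overlap. Windows of the 2 genes called with pollutants against ST vehicle are shown with the match in capitals. The Gstp3 window (chr19:4059398-4059697, minus strand) holds GCGTG from position -235 relative to the start, and the Gstm7 window of 1 of its 2 starts (chr3:107931565-107931864, minus strand) holds TGACNNNGC from position -129.
Gstp3: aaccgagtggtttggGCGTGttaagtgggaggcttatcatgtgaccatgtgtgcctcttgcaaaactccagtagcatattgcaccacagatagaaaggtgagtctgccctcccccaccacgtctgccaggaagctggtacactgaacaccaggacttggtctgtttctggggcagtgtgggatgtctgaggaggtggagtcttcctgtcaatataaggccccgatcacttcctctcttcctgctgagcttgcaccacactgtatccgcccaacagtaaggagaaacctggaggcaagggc
Gstm7: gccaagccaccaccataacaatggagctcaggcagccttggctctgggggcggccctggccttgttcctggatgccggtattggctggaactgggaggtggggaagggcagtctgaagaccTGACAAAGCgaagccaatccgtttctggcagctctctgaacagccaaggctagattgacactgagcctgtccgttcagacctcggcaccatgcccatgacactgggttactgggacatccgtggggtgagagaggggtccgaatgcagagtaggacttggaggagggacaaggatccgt
Of the 4 genes with TGACNNNGC, Gstm7 was called lower in pollutants against ST vehicle, and the other 3 were not called, with differences of -0.21 for Gsta3, -0.41 for Gstm5 and -0.08 for Mgst1. A match is a description of letters in the window and no evidence of binding.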

How the data were processed

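RNA of 13 livers was labelled with Cy3 (0.1 ug per labelling) and hybridised to Agilent 4x44K mouse arrays on 5 slides. Spot intensity on the linear scale comes from the scanner files that the authors deposited, made with Agilent Feature Extraction 11.5.1.1 per the file headers; probe positions are on mm9. A deposited table of log2 values, normalized by the authors, was also at hand; its scale was read from the values, and it served as an alternative.

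Here the processed signal was log2-transformed, averaged over spots of a probe without control and outlier spots, and lowered by each array's 75th percentile (782.1 to 1353.9 intensity units). Between 62.8% and 69.5% of probes were well above background per array, and no member was saturated. A probe was kept where it was well above background throughout at least 1 group, and each gene took its brightest probe. limma 3.58.1 (R 4.3.3) fitted the 3 groups to all 13 arrays, with two-sided contrasts, standard errors from the model and Benjamini-Hochberg adjustment over 19518 genes; genes were called at an adjusted p under 0.05. With 3 to 5 arrays a group, the number of arrays limits precision. In simulated data of this size the fit recovered 21, 20 and 28 of 50 genes changed 1.5-fold, and 39, 41 and 42 of 50 changed 2-fold, in HFHS against ST vehicle, pollutants against ST vehicle and HFHS against pollutants. The simulated noise was independent between arrays, and the changed genes were drawn from all genes. Recovery for the phase II genes, or with arrays of a slide deviating together, was therefore not measured.

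The members, the lists and the rule for named genes were chosen with earlier results of these data known. Named were the called members, the 5 of smallest p in each direction per comparison, members fixed by role, and from each list the called genes or the 2 of smallest p. Alternatives were normexp background correction with an offset of 50, quantile normalization, no filter or a stricter one on dim probes, the authors' table, the mean of all probes, slide or replicate as a block, only the 2 groups compared, and leaving out each array; leaving out 3 HFHS arrays or slide 1 was added after seeing the data. Same-numbered arrays deviated together in 8 of 11 pairs only (correlation of deviations over 0.1; range -0.17 to 0.56), so the numbers were not taken as pairs. Arrays of one slide did so in 10 of 11 pairs (range -0.02 to 0.56), and slide, which the main model leaves out, was fitted as a block in an alternative. Nothing states that arrays come from separate cages or litters, so p-values measure the spread between these samples.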

Additional observations from a re-analysis of the deposited data

Results flagged for a closer look

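Among 100 groups of 5 arrays (50 members in HFHS and in pollutants), 2 held an array whose gap to the nearest other array took up most of the range of its group; chance alone marks about 1 in 20 groups. Mgst2 read -2.06 on pollutant replicate 2, against -3.56 to -3.19 on the other pollutant arrays. On that array the adipocyte markers (6 of 7 measured, Adipoq not among the genes tested) averaged 0.56, against -1.92 to -0.58 on the other pollutant arrays; their part in the Mgst2 value was not tested. Gstt2 read 3.30 on HFHS replicate 4, against 3.51 to 3.58 on the other HFHS arrays, and without that replicate the Gstt2 difference between HFHS and pollutants was -0.41 (limma adjusted p = 0.0597).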

How the results depend on the processing

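Of 720 repeats of 30 named differences, 652 kept their side of the threshold, 54 lost a call, 14 gained one and 0 turned a called direction. All 54 losses fell on the differences called in the report, 2 for pollutants against ST vehicle and 7 for HFHS against pollutants. Most of the 30 were not called and could not lose a call, so 652 of 720 does not measure how stable the calls were. For HFHS against ST vehicle the count of called members, 0 in the report, was 1 in the authors' table, 1 with quantile normalization, and 0 to 3 when single arrays were left out. For pollutants against ST vehicle, 2 in the report, it was 1 with normexp, with slide as a block, with only the 2 groups compared, without HFHS replicates 3 to 5 and without slide 1, 3 with quantile normalization, the stricter filter, the authors' table and the mean of all probes, and 1 to 2 when single arrays were left out (1 without ST vehicle replicate 2 or 3). For HFHS against pollutants, 7 in the report, it was 8 with quantile normalization, the stricter filter and the mean of all probes, 5 with slide as a block and without the filter, 2 with normexp, 2 without those HFHS replicates, 0 without slide 1, where 1 gene of all was called, and 4 to 7 when single arrays were left out (4 without HFHS replicate 2 or pollutant replicate 3). The median of the 50 members moved to -0.18 in HFHS against ST vehicle and -0.14 in HFHS against pollutants with normexp, where the median of all genes was 0.09 in both; causes were not tested. With the replicate block the counts were 0, 1 and 5 (medians -0.06, -0.12 and -0.01). In all genes, normexp called 45, 22 and 284 in the 3 comparisons, against 134, 192 and 756. Depth of signal limits the dim members Gsto2, Mgst2, Ugt1a6a and Ugt2a1, and 31 tested members rest on a single probe.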
